A study of Mus musculus with 7 samples.

Results

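The glutathione peroxidases, catalase and superoxide dismutases are the enzymes that dispose of superoxide and peroxides. The set held 10 genes, listed by name as a family and found by symbol for the Ensembl identifiers of the deposited gene counts: Gpx1, Gpx2, Gpx3, Gpx4, Gpx7, Gpx8, Cat, Sod1, Sod2 and Sod3. They were 10 of the 46603 genes in the count tables, and 9 of them were among the 16731 genes with enough counts to be tested, while Gpx2 had no count in any library.

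Polyadenylated RNA was sequenced from TRAMP-C1, a mouse prostate tumour line labelled prostate epithelial, of the strain C57BL/6-TgN(TRAMP)8247Ng. In this strain a transgene drives tumours of the prostate, so all groups share that background. The tested cells carried a PAX8-NFE2L2 fusion gene (label PAX8-NFE2L2 fusion+, 3 libraries), the control cells the matching empty vector (label Empty vector, 3 libraries), and 1 further library was labelled WT, with no vector in its label. Both constructs were delivered by lentivirus from the plasmid Lv229, with 12 h of virus and 24 h of fresh medium before RNA was taken, and the sources do not say which promoter drives the fusion or whether clones were picked. NFE2L2 encodes NRF2, a transcription factor that activates antioxidant and detoxification genes, and PAX8 is a paired-box factor that guides how thyroid and kidney form. The series was designed to compare fusion+ with empty vector cells, and here that question is asked of these enzymes.

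Superoxide dismutases convert superoxide into hydrogen peroxide and oxygen, SOD1 mainly in the cytosol, SOD2 in the mitochondrial matrix and SOD3 outside the cell. Catalase, in peroxisomes, splits hydrogen peroxide into water and oxygen, and glutathione peroxidases reduce hydrogen peroxide or lipid hydroperoxides, most of them with glutathione as the reductant. Some members of the peroxidase family carry selenocysteine in the active site, and GPX7 and GPX8 carry cysteine and sit in the endoplasmic reticulum, where they take part in oxidative protein folding. NRF2 pairs with small MAF proteins on the antioxidant response element of its target genes.

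Reads assigned to genes came to 26368182 to 55114667 in the fusion+ libraries, 40089266 to 59597170 in the empty vector libraries and 52859158 in the WT library. The labels do not tell whether the replicates were grown as separate cultures, so p-values here measure a spread between samples that may be technical only. Pax8, part of the construct, lay at 5.58 to 8.54 CPM in fusion+ libraries, at 0.0334 to 0.217 CPM in empty vector libraries and at 0.0401 CPM in the WT library (CPM, read counts scaled to a common library size with TMM factors), and counts per gene do not separate construct reads from the cells' own. The libraries numbered 3 stood apart from the others in lane, depth and make-up. Both came from other sequencing lanes than numbers 1, 2 and WT. They had the fewest reads assigned to genes, 26368182 (fusion+) and 40089266 (empty vector), against 52524828 to 59597170 in the other libraries. Their multiply aligned share was 44.783% (fusion+) and 45.323% (empty vector), against 36.096 to 38.885%. Their mitochondrially encoded share was 6.139% (fusion+) and 4.97% (empty vector), against 2.802 to 3.943% in the other libraries. Krt8 and Epcam are given as defining epithelial markers, picked after their values were seen. Krt8 averaged 1.18 ± 0.56 CPM in fusion+ and 1.21 ± 0.619 CPM in empty vector libraries (SD, n = 3 each), and Epcam stayed under 0.6 CPM in every library. The mesenchymal list summed to 14100 to 21000 CPM in fusion+, 15300 to 23800 CPM in empty vector and 24500 CPM in WT libraries, so beside the label prostate epithelial the epithelial markers Krt8 and Epcam were low and the mesenchymal ones high. The immune list summed to 3.53 to 4.29 CPM in fusion+, 2.22 to 3.06 CPM in empty vector and 3.69 CPM in WT libraries, and the endothelial list to 0.898 to 1.06 CPM in fusion+, 0.591 to 0.987 CPM in empty vector and 1.16 CPM in WT libraries. By edgeR 0 of 12 tested mesenchymal, 2 immune and 1 endothelial genes passed (2, 0 and 0 at an unadjusted p under 0.05, and by DESeq2 1, 0 and 0). With the replicate block described with the members, 1 mesenchymal gene was higher, Cdh2 (0.98, edgeR adjusted p = 0.00217), and 3 were lower, Lum (-1.93, edgeR adjusted p = 0.000335), Dcn (-1.01, edgeR adjusted p = 0.00199) and Col3a1 (-0.87, edgeR adjusted p = 0.0254), named after their values were seen. Of 9 tested epithelial markers 2 were higher and 0 lower, and with the block 3 were higher and 1 lower, the added ones being Cdh1 (1.53, edgeR adjusted p = 0.022) and Krt19 (-1.68, edgeR adjusted p = 0.0437). Of the 2, Krt18 averaged 5.92 ± 1.96 CPM in fusion+ and 0.83 ± 0.543 CPM in empty vector libraries, and Foxa1 reached 0.412 to 2.13 CPM in fusion+ libraries and had 0 counts in all 3 empty vector libraries. With 1 library left out, Krt18 passed in 2 of 6 fits, those without a library numbered 3 (edgeR adjusted p = 0.0116 to 0.135 over the 6), and Foxa1 in 3, not without empty vector replicate 2 or fusion+ replicate 1 or 2 (edgeR adjusted p = 0.00457 to 0.0729). Their part in the enzymes' values was not tested.

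Catalase was the member that rose with the fusion, and no member fell in the fit without pairing. Of the 9 tested members, 1 was higher and 0 were lower with the fusion than with empty vector at an edgeR quasi-likelihood adjusted p under 0.05, where the background over all tested genes was 1.69% higher and 0.353% lower. At an unadjusted p under 0.05 there were 4 members, all higher, and 1824 of the 16731 tested genes in either direction. The median log2 fold change of the 9 was 0.47, and that of all tested genes 0.01. The members were chosen with earlier results of these data known, so these counts and medians are a description only. In 3 members, Cat, Sod1 and Sod2, every fusion+ library lay above every empty vector library, a pattern that 9.16% of all tested genes shared. In 0 members did every fusion+ library lie below, which 6.65% of tested genes did, and the groups of the other members overlapped. In bulk RNA, fewer cells expressing a gene and less RNA per cell cannot be told apart.

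**Figure D1:**
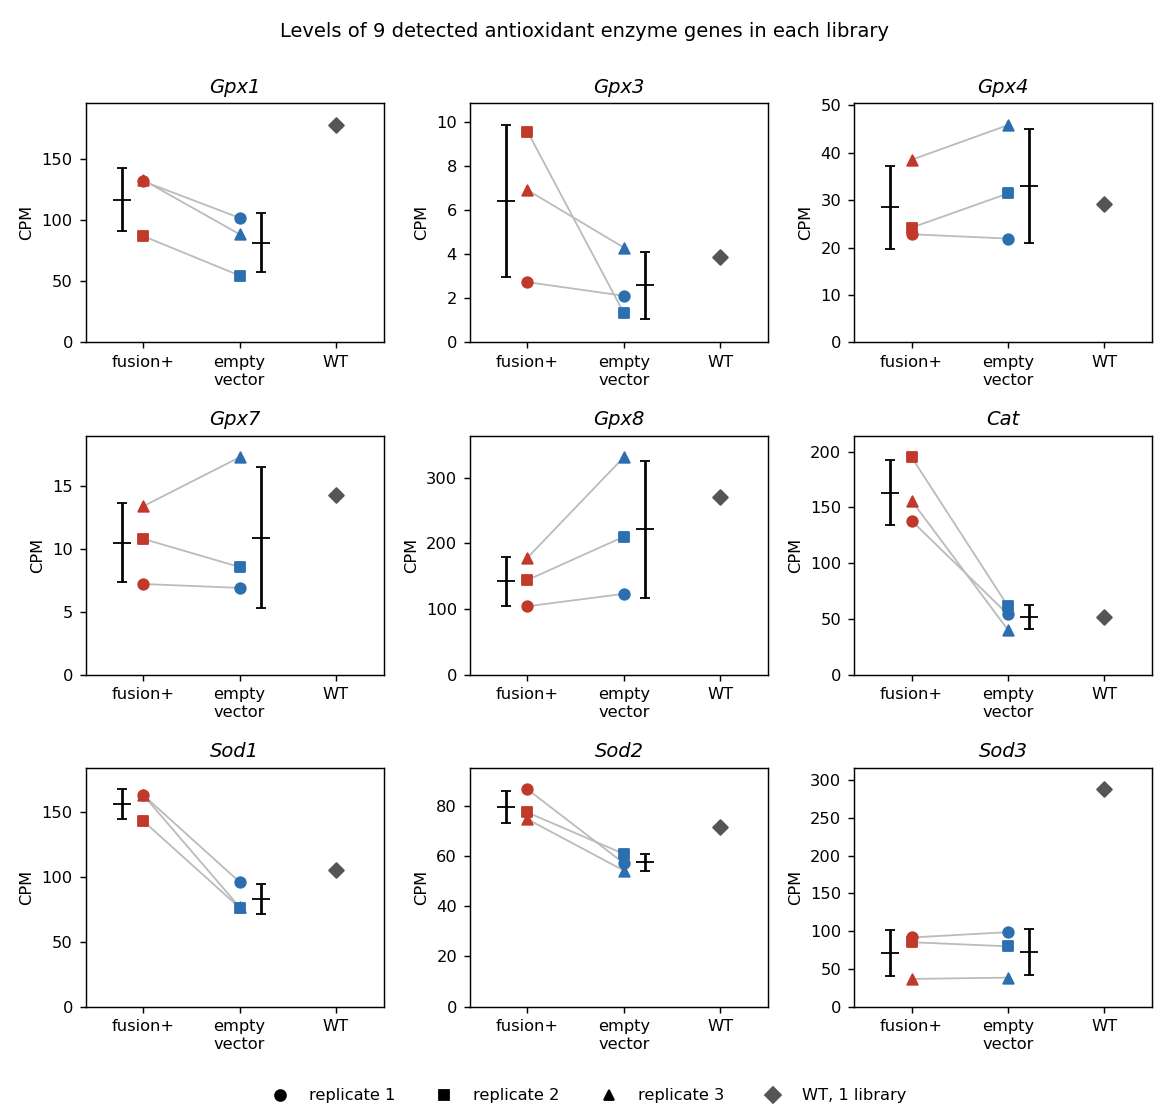
CPM of the 9 detected genes in each library (y axis, from 0), for fusion+, empty vector and WT (x axis). Symbols mark the replicate number, grey lines join libraries of the same number, and bars beside the points are the mean ± SD over 3 libraries. The fusion+ libraries of Cat (138 to 195 CPM) all lie above the empty vector libraries (40.1 to 61.4 CPM), while for Gpx8 the fusion+ library is the lower of each pair.

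Libraries of the same number deviated together from their group means, so number was treated as a pairing of the samples. No label names a shared batch, so this pairing was inferred from the same values that the fit then tests. A fit with the replicate number as a block was run beside the fit without it. In the block fit 4 members were higher (Cat, Sod1, Sod2 and Gpx1) and 1 was lower (Gpx8), and the background was 7.63% of tested genes higher and 5.5% lower. DESeq2 without the block called 2 members higher (Cat and Sod1) and 0 lower, over backgrounds of 3.72% and 1.79%.

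Cat (ENSMUSG00000027187.9, GRCm38 chr2:103453849-103485160, minus strand) had 138, 195 and 156 CPM in fusion+ libraries 1, 2 and 3, against 54 CPM, 61.4 CPM and 40.1 CPM in empty vector libraries 1, 2 and 3, and 51.6 CPM in the WT library. The lowest fusion+ library stood above the highest empty vector library by a wide margin, and the empty vector libraries surrounded the WT value. Fusion+ libraries averaged 163 ± 29.2 CPM and empty vector libraries 51.9 ± 10.8 CPM (SD, n = 3 each), 3.15-fold higher with the fusion. The log2 fold change was 1.65 (SE 0.24, 95% interval 1.11 to 2.2, edgeR adjusted p = 0.0123), and within the pairs it was 1.35, 1.67 and 1.96. Only 2.89% of the tested genes had a higher log2 fold change. With the block the value was 1.66 (edgeR adjusted p = 0.00134). Leaving out fusion+ replicate 2, the library with the highest Cat level, gave 1.5 (edgeR adjusted p = 0.0524), so the call was lost without that library. Leaving out empty vector replicate 3 gave 1.5 as well, and there the call held (edgeR adjusted p = 0.0238). Without fusion+ replicate 2 the calls over all genes also fell, from 282 higher and 59 lower to 137 and 17. The part of Cat's own values in the lost call was not tested. The call held with any of the 5 other libraries left out, and numbers 1 and 2 alone gave 1.54 (edgeR adjusted p = 0.0372).

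Among all tested genes outside the set, the 3 whose log2 CPM followed Cat most closely over the 7 libraries were Ftl1 (Pearson r = 0.997), the light chain of the iron store ferritin, Ephx1 (r = 0.995), the microsomal epoxide hydrolase, and Taldo1 (r = 0.994), the transaldolase of the pentose phosphate pathway. The 7 points share 2 levels, fusion+ and the rest, so r mostly states that difference and is given as a description. Ephx1 had 283, 380 and 273 CPM in fusion+ libraries 1 to 3, against 52.3, 60.1 and 34.6 CPM in empty vector libraries 1 to 3 and 43.7 CPM in the WT library. Like Cat, it was highest in fusion+ replicate 2 and lowest in empty vector replicate 3. The log2 fold changes of Ephx1, Taldo1 and Ftl1 were 2.67, 1.34 and 1.19 (edgeR adjusted p = 0.00317, 0.0118 and 0.0249). Taldo1 missed the threshold without fusion+ replicate 2 (edgeR adjusted p = 0.0599) or empty vector replicate 2 (edgeR adjusted p = 0.0647).

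Sod1 (ENSMUSG00000022982.9, GRCm38 chr16:90220754-90226329, plus strand), the copper and zinc enzyme, had 163, 143 and 163 CPM in fusion+ libraries 1 to 3. Empty vector libraries 1 to 3 had 96 CPM, 76.2 CPM and 76.6 CPM, and the WT library 105 CPM. All fusion+ values exceeded all others, and the WT value lay above every empty vector library. Fusion+ libraries averaged 156 ± 11.4 CPM and empty vector libraries 83 ± 11.3 CPM (SD, n = 3 each), 1.88-fold higher with the fusion. The log2 fold change of 0.91 (SE 0.19, 95% interval 0.48 to 1.35) missed the threshold in the fit without the block (edgeR adjusted p = 0.0552) and passed with it (0.92, edgeR adjusted p = 0.00255) and with DESeq2 (0.9, adjusted p = 0.000857). Within pairs it was 0.76, 0.91 and 1.09. Sod1 overlaps Scaf4 on the other strand without a shared exon base, and 23.1% of the 50-base windows of its principal transcript also occur in the pseudogene Gm8566, so some reads may have been set aside as aligning to several places.

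Sod2 (ENSMUSG00000006818.4, GRCm38 chr17:13006846-13040063, plus strand), the manganese enzyme of mitochondria, had 86.5, 77.3 and 74.6 CPM in fusion+ libraries 1 to 3, against 57.1, 60.8 and 54.2 CPM in empty vector libraries 1 to 3 and 71.4 CPM in the WT library. The groups did not overlap, but the step was small and the WT library stood between them. Fusion+ libraries averaged 79.5 ± 6.21 CPM and empty vector libraries 57.4 ± 3.31 CPM (SD, n = 3 each). Sod2's log2 fold change was 0.47 (95% interval 0.06 to 0.88, edgeR adjusted p = 0.341), and the block fit gave the same 0.47 with an edgeR adjusted p of 0.0188. In settings chosen after seeing the data, the block call was lost in numbers 1 and 3 alone (edgeR adjusted p = 0.099) and in numbers 2 and 3 alone (edgeR adjusted p = 0.118).

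Sod3 (ENSMUSG00000072941.5, GRCm38 chr5:52363791-52371418, plus strand), the enzyme secreted to the extracellular matrix, had 91.7, 85.4 and 36.8 CPM in fusion+ libraries 1 to 3, against 98.8, 80 CPM and 38.5 CPM in empty vector libraries 1 to 3. The library numbered 3 was the lowest of each group, and libraries of the same number were nearly level. Between the groups the log2 fold change was -0.02 (95% interval -1 to 0.95, edgeR adjusted p = 0.998), and with the block -0.03 (95% interval -0.22 to 0.17, edgeR adjusted p = 0.869), so within pairs any change lay inside a narrow range around 0. The WT library had 288 CPM, well above all 6 transduced libraries.

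**Figure D2:**
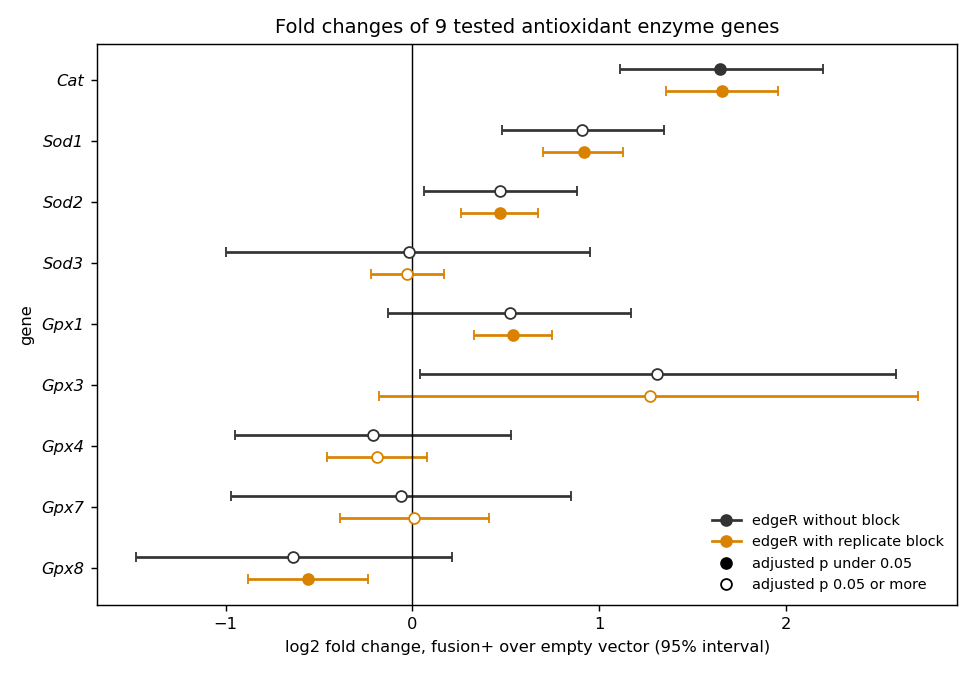
Log2 fold change of each tested gene, fusion+ over empty vector (x axis), with 95% intervals, in the edgeR fit without and with the replicate block. Filled points have an adjusted p under 0.05: Cat in both fits, and Sod1, Sod2, Gpx1 and Gpx8 only with the block, Gpx8 at -0.56 being the one on the lower side.

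The glutathione peroxidase family holds 2 chemistries, which can be read from the codon at the catalytic position. The stretches of 27 coding bases around it in the principal transcripts of GENCODE release M21 (GRCm38, sense strand) are printed 5′ to 3′ to show which members need selenium, with the catalytic codon in capitals.
Gpx1: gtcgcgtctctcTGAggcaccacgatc
Gpx2: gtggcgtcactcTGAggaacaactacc
Gpx3: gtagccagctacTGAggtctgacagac
Gpx4: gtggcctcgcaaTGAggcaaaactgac
Gpx7: gtagctagcgaaTGTggcttcacagac
Gpx8: gtggctagtgacTGCcgcttcacagac
In Gpx1, Gpx2, Gpx3 and Gpx4 the codon is an in-frame TGA, which selenoprotein synthesis reads as selenocysteine, at codons 47, 40, 73 and 73. In Gpx7 and Gpx8 it is a cysteine codon, TGT at codon 56 and TGC at codon 79. Gpx5 and Gpx6, outside the set, had 0 counts in every library.

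Gpx1 (ENSMUSG00000063856.7, GRCm38 chr9:108338903-108340343, plus strand), the ubiquitous selenoenzyme of cytosol and mitochondria, had 132, 87.1 and 133 CPM in fusion+ libraries 1 to 3, against 102, 54.8 and 88.6 CPM in empty vector libraries 1 to 3 and 178 CPM in the WT library. The groups overlapped, because number 2 was low in both, yet the fusion+ library was the higher of each pair, and the WT library was above all others. Fusion+ libraries averaged 117 ± 26 CPM and empty vector libraries 81.8 ± 24.4 CPM (SD, n = 3 each). The log2 fold change was 0.52 (95% interval -0.13 to 1.17, edgeR adjusted p = 0.627), and 0.54 with the block (95% interval 0.33 to 0.75, edgeR adjusted p = 0.0128). The ratios within pairs were 0.37, 0.67 and 0.58 on the log2 scale. In numbers 1 and 3 alone, a setting chosen after seeing the data, the block call was lost (edgeR adjusted p = 0.131).

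Gpx3 (ENSMUSG00000018339.10, GRCm38 chr11:54902453-54910377, plus strand), the secreted plasma form, was rare, at 2.74, 9.58 and 6.92 CPM in fusion+ libraries 1 to 3, against 2.12, 1.34 and 4.31 CPM in empty vector libraries 1 to 3 and 3.87 CPM in the WT library. Fusion+ was higher in each pair but unevenly, with log2 ratios of 0.37, 2.83 and 0.68. The difference, 1.31 on the log2 scale (95% interval 0.04 to 2.59), passed neither without nor with the block (edgeR adjusted p = 0.435 and 0.21). It rested on 75 to 523 counts a library.

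Gpx4 (ENSMUSG00000075706.9, GRCm38 chr10:80047166-80056439, plus strand), the enzyme that reduces lipid hydroperoxides in membranes and guards against ferroptosis, had 22.8, 24.2 and 38.5 CPM in fusion+ libraries 1 to 3, against 21.9, 31.4 and 45.8 CPM in empty vector libraries 1 to 3 and 29.1 CPM in the WT library. The groups overlapped widely, and number 3 was the highest of each. The log2 fold change was -0.21 (95% interval -0.95 to 0.53, edgeR adjusted p = 0.961), and it changed sign when empty vector replicate 3 was left out (0.1). With the block it was -0.19 (95% interval -0.46 to 0.08, edgeR adjusted p = 0.311). Of the 50-base windows of its principal transcript 68.9% also occur in Gpx4-ps2 or AC122253.3, so reads that align to several places, which the tables do not assign to a gene, can lower its level.

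Gpx2 (ENSMUSG00000042808.7, GRCm38 chr12:76792333-76795554, minus strand), the form of the gut lining, had 0 counts in all 7 libraries, which allows up to 0.0503 to 0.1138 CPM depending on the library (3 counts, counting error only). It was not tested, and no fold is given.

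Neither member of the endoplasmic reticulum was higher with the fusion. Gpx8 (ENSMUSG00000021760.3, GRCm38 chr13:113042753-113046410, minus strand) had 104, 144 and 178 CPM in fusion+ libraries 1 to 3, against 123, 210 and 331 CPM in empty vector libraries 1 to 3 and 270 CPM in the WT library. The fusion+ library was the lower of each pair, while the groups overlapped because number 1 was low in both and number 3 high. Fusion+ libraries averaged 142 ± 37.3 CPM and empty vector libraries 221 ± 105 CPM (SD, n = 3 each). On the log2 scale the fold change was -0.64 (95% interval -1.48 to 0.21), which missed the threshold without the block (edgeR adjusted p = 0.662), and the block fit called it lower at -0.56 (95% interval -0.88 to -0.24, edgeR adjusted p = 0.0442). Without the block it was -0.23 when empty vector replicate 3 was left out and -0.94 when empty vector replicate 1 was. Within pairs it was -0.24, -0.54 and -0.89, the widest in number 3, and numbers 1 and 2 alone gave -0.38 with the block (edgeR adjusted p = 0.0374). In numbers 1 and 3 alone the block fit gave -0.57 (edgeR adjusted p = 0.217), a setting chosen after seeing the data. The part that the different depth and make-up of the libraries numbered 3 have in this value was not tested. Gpx8 overlaps Cdc20b on the other strand without a shared exon base.

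The genes whose log2 CPM was most like that of Gpx8 over the 7 libraries were Etfa (Pearson r = 0.995), a subunit of the electron transfer flavoprotein of mitochondria, Azi2 (r = 0.989), an adaptor of the kinase TBK1, and Spopl (r = 0.988), a ubiquitin ligase adaptor. Etfa had 76.7, 86.1 and 94.5 CPM in fusion+ libraries 1 to 3, against 81.4, 95.5 and 114 CPM in empty vector libraries 1 to 3 and 108 CPM in the WT library. None of the 3 passed in fusion+ against empty vector (edgeR adjusted p = 0.925, 0.878 and 0.933), and their span was far narrower than that of Gpx8.

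Gpx7 (ENSMUSG00000028597.11, GRCm38 chr4:108400390-108406961, minus strand) had 7.21, 10.8 and 13.4 CPM in fusion+ libraries 1 to 3, against 6.9, 8.56 and 17.3 CPM in empty vector libraries 1 to 3 and 14.3 CPM in the WT library. The groups covered the same range, again with number 3 the highest of each. Its log2 fold change was -0.06 (95% interval -0.97 to 0.85, edgeR adjusted p = 0.995), and 0.01 with the block (95% interval -0.39 to 0.41, edgeR adjusted p = 0.972), so its sign was not set.

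Levels between genes were compared per kilobase of the union of annotated exons, as mean CPM per kb ± SD over 3 libraries. Gpx8 stood highest of the set, at 136 ± 35.6 CPM per kb in fusion+ libraries, 211 ± 99.9 in empty vector libraries and 258 in the WT library. Gpx1 followed, at 81.3 ± 18.1 CPM per kb in fusion+, 56.8 ± 16.9 in empty vector and 124 in WT libraries, and in fusion+ libraries its mean ± SD range nearly met that of Gpx8. Cat came next in fusion+ libraries at 62.5 ± 11.2 CPM per kb, and its mean ± SD range overlapped that of Gpx1. In empty vector libraries, at 19.8 ± 4.15, Cat lay within the spread of Sod1 (20.9 ± 2.85), Sod3 (19.4 ± 8.25) and Gpx4 (19.1 ± 6.98). Sod1 had 39.3 ± 2.87 CPM per kb in fusion+ libraries, and Sod3 (19.1 ± 8.03) and Gpx4 (16.5 ± 5.05) could not be ranked against each other there. Gpx7 (8.14 ± 2.43 in fusion+ and 8.48 ± 4.35 CPM per kb in empty vector libraries) and Sod2 (7.94 ± 0.621 in fusion+ and 5.73 ± 0.331 CPM per kb in empty vector libraries) were lower and not told apart by their spread, and Gpx3 was lowest, at 3.54 ± 1.9 CPM per kb in fusion+ and 1.43 ± 0.848 CPM per kb in empty vector libraries.

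The place of Sod1 depended on the length used. Its annotated exons span 3970 bases and its principal transcript 641 bases, and per kilobase of that transcript Sod1 lay at 243 ± 17.8 CPM per kb in fusion+ libraries, 129 ± 17.6 in empty vector libraries and 164 in the WT library, above Gpx8 with the fusion and within its spread with empty vector. Per principal transcript Sod2 lay above Gpx7 in fusion+ libraries, at 13.6 ± 1.06 CPM per kb, and within its spread in empty vector libraries, at 9.79 ± 0.565 CPM per kb. By that length Gpx4 lay at 34.4 ± 12.5 CPM per kb in empty vector libraries. Its mean there was above those of Cat (19.8 ± 4.15) and Sod3 (19.4 ± 8.25), with overlapping mean ± SD ranges. Reads that align to several places, as given above, can lower the level of Gpx4 by either length.

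**Figure D3:**
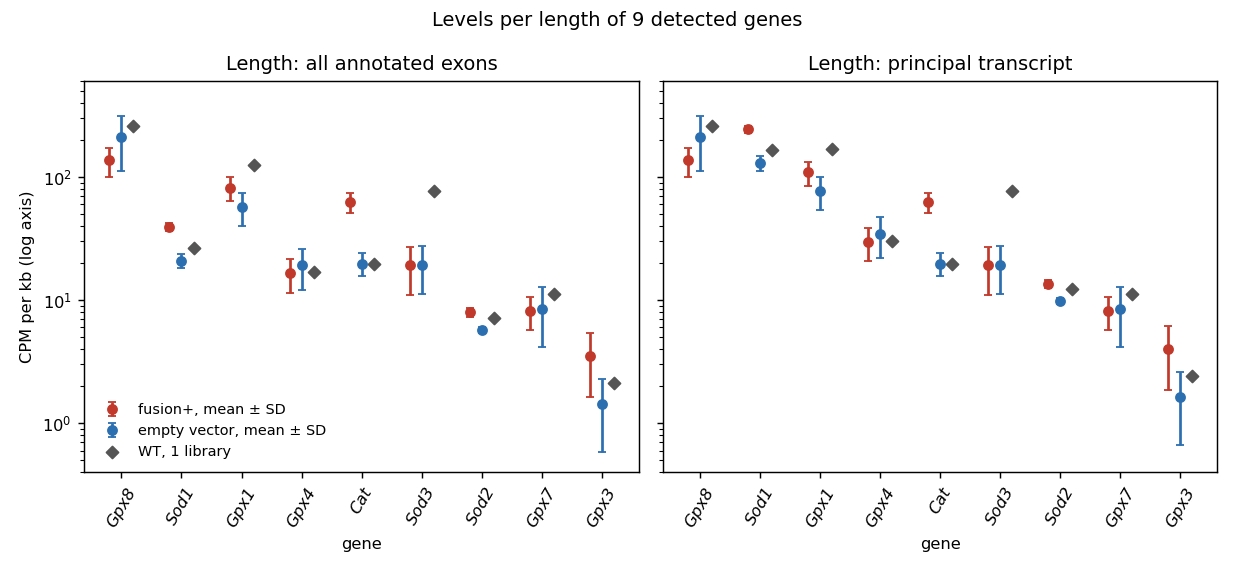
CPM per kb of the 9 detected genes (log y axis), by the union of annotated exons (left panel) and by the principal transcript (right panel). Points are means ± SD over 3 libraries for fusion+ and empty vector, and diamonds the 1 WT library. Gpx8 (211 CPM per kb with empty vector) has the highest mean with empty vector by either length, Gpx3 (1.43 by exons) at the bottom, and Sod1 moves the most between panels.

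The WT library gives the members' level without a labelled vector, with 1 library and so no spread of its own. Both comparisons with WT assume that it varies like the other groups, they share the WT library, and each shares its transduced libraries with the comparison of fusion+ and empty vector. For empty vector against WT, edgeR called 0 of 16731 genes (0.0%), with 746 at an unadjusted p under 0.05, and 0 of the 9 members, with 2 at an unadjusted p under 0.05. DESeq2 called 77 genes (0.46%) and 0 members. The 2 members were Sod3, with a log2 fold change of -1.99 (95% interval -3.26 to -0.73, edgeR adjusted p = 0.812), and Gpx1, at -1.13 (95% interval -1.99 to -0.26, edgeR adjusted p = 0.918). Cat differed little, at 0.01 (95% interval -0.75 to 0.76).

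For fusion+ against WT, edgeR called 73 genes (0.436%), 57 higher and 16 lower, and 0 members. At an unadjusted p under 0.05 there were 1284 genes and 2 members. The count of called genes fell to 14 higher and 2 lower without fusion+ replicate 1, and to 1 and 0 without fusion+ replicate 2. DESeq2 called 498 genes (2.98%) and 2 members. Those 2 were Cat, with a log2 fold change of 1.66 by either tool (edgeR adjusted p = 0.125, DESeq2 adjusted p = 0.000591), and Sod3, at -2.01 by edgeR (adjusted p = 0.24) and -2.02 by DESeq2 (adjusted p = 0.0331). The WT library's 288 CPM of Sod3 were 4.04 times the fusion+ mean and 3.98 times the empty vector mean. Gpx8 was at -0.92 (95% interval -2.06 to 0.21, edgeR adjusted p = 0.795), Sod1 at 0.57 (95% interval -0.06 to 1.2, edgeR adjusted p = 0.731), and Gpx1 at -0.61 (95% interval -1.5 to 0.28, edgeR adjusted p = 0.892). What the WT cells went through besides the missing vector cannot be told apart from the library itself.

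The promoters of the members that stood above every empty vector library, Cat, Sod1 and Sod2, and of Gpx8 as the member on the lower side, are printed to show whether they hold the core letters of the antioxidant response element. The windows run from 250 bases before to 50 after a start site and come from RefSeq (GRCm38.p6). They are written 5′ to 3′ on the gene's strand, with a match to TGACNNNGC on either strand in capitals.
Cat (chr2:103485104-103485403, minus strand): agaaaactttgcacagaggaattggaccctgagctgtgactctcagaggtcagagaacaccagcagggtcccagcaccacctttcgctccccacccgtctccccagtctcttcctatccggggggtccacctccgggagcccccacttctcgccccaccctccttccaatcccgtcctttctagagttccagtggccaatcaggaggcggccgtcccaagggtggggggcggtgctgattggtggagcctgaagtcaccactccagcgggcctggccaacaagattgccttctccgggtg
Sod1 (chr16:90220512-90220811, plus strand): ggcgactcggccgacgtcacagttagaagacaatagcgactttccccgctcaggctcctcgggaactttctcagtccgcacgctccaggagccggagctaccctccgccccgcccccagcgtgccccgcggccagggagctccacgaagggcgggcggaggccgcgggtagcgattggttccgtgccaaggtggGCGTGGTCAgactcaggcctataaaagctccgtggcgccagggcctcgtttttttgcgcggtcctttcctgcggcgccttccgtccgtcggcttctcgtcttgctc
Sod2 (chr17:13007589-13007888, plus strand): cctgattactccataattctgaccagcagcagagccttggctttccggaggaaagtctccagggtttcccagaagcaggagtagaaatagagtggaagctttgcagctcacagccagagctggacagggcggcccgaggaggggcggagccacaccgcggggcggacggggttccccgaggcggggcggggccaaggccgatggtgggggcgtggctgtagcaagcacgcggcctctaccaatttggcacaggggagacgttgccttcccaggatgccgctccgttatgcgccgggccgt
Gpx8 (chr13:113046339-113046638, minus strand): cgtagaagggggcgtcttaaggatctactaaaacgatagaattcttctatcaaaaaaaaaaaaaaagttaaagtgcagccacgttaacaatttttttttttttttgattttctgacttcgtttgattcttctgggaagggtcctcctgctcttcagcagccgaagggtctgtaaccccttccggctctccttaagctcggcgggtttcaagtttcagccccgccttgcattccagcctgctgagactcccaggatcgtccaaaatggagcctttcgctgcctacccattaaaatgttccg
The letters TGACNNNGC occurred in 1 of the 9 members with a window, Sod1, where the match lies on the reverse strand and begins 56 bases before the start site. Counted by gene as here, 14% of 27025 genes held them in a window, and counted by window, 12.4% of 32851 windows of the same length and 1 of the members' 12. The looser TGANNNNGC, which includes every match of the stricter spelling, occurred in 2 of the 9 members, Sod1 and the undetected Gpx2, and in 45% of all genes and 41.3% of all windows. Cat, Sod2 and Gpx8 held neither in these windows, which says nothing of more distant sequence or of factor binding. The share of G and C was 62% for Cat, 66.7% for Sod1, 64.3% for Sod2 and 45.3% for Gpx8.

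Around the enzymes, genes of the supply, reduction and conjugation of glutathione, the co-substrate of the peroxidases, formed the first list. Of 17 listed genes, all tested, 4 were higher and 0 lower with the fusion (edgeR adjusted p under 0.05), 6 were higher and 0 lower by DESeq2, and 9 were higher and 1 lower with the block. Their log2 fold changes had a median of 0.67, against 0.01 for all tested genes. This list and those below were also chosen with earlier results of these data known, so their counts and medians are a description only. Gsta4, a glutathione transferase for lipid aldehydes, averaged 145 ± 23.7 CPM in fusion+ and 16 ± 2.5 CPM in empty vector libraries (log2 fold change 3.18, edgeR adjusted p = 0.000798). Both Gclc and Gclm, the subunits of the enzyme that commits cysteine to glutathione, rose: Gclm averaged 458 ± 27.2 CPM in fusion+ and 107 ± 38 CPM in empty vector libraries (2.1, edgeR adjusted p = 0.00811), and Gclc 184 ± 19.8 CPM in fusion+ and 58.3 ± 17.8 CPM in empty vector libraries (1.66, edgeR adjusted p = 0.0162). Slc7a11, the cystine importer, averaged 302 ± 68.4 CPM in fusion+ and 115 ± 26.8 CPM in empty vector libraries (1.39, edgeR adjusted p = 0.0372). Gsta4 and Gclm passed whichever library was left out. Gclc did not pass without fusion+ replicate 1 (edgeR adjusted p = 0.0529) or without empty vector replicate 2 (edgeR adjusted p = 0.0871), and Slc7a11 passed in 0 of the 6 (edgeR adjusted p = 0.0626 to 0.147).

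The peroxiredoxins and thioredoxins, the other peroxide-reducing system, had 1 of 16 genes higher and 0 lower, and 5 higher and 2 lower with the block, with a median of 0.22. The 1 was Srxn1, the sulfiredoxin that repairs overoxidized peroxiredoxins, at 546 ± 3.64 CPM in fusion+ and 141 ± 16.5 CPM in empty vector libraries (log2 fold change 1.95, edgeR adjusted p = 0.00256), and it passed whichever library was left out. The 2 lower genes with the block, named after their values were seen, were Sesn2 (-0.77, edgeR adjusted p = 0.00752), a stress-induced sestrin, and Prdx4 (-0.52, edgeR adjusted p = 0.0192), the peroxiredoxin of the endoplasmic reticulum. Prdx4 had 112, 129 and 175 CPM in fusion+ libraries 1 to 3, against 142, 181 and 289 CPM in empty vector libraries 1 to 3 and 264 CPM in the WT library, the same order of libraries within groups as in Gpx8.

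In the list of oxidative folding in the endoplasmic reticulum, where GPX7 and GPX8 act, 0 of 16 genes passed edgeR in either direction without the block, 1 was at an unadjusted p under 0.05, and DESeq2 called 0. With the block 1 was higher and 3 lower, where 7.63% of all tested genes were higher and 5.5% lower. The median was -0.05. Nearest to passing without the block were Qsox2, a sulfhydryl oxidase, at 18.8 ± 2.19 CPM in fusion+ and 28.9 ± 6.92 CPM in empty vector libraries (-0.62, edgeR adjusted p = 0.356), and Ero1lb, an oxidase of protein disulfide isomerase (0.86, edgeR adjusted p = 0.526). The 3 lower genes with the block, also named after their values were seen, were Qsox2 (-0.6), Prdx4 (-0.52) and Selenof (-0.46), with edgeR adjusted p = 0.0244, 0.0192 and 0.0242, and the higher one was Qsox1 (0.29). Prdx4 is the same gene already counted in the peroxiredoxin list.

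The genes around selenium were read as 2 lists. Of 15 genes of selenoprotein synthesis and uptake 1 was higher and 0 lower (2 higher and 1 lower with the block, median -0.06), and that 1 was Lrp8, a receptor that takes up selenoprotein P, at 257 ± 59.2 CPM in fusion+ and 79.1 ± 31 CPM in empty vector libraries (log2 fold change 1.7, edgeR adjusted p = 0.0491). Its call was lost in 3 of the 6 fits without a library: without fusion+ replicate 1 (edgeR adjusted p = 0.145), fusion+ replicate 2 (edgeR adjusted p = 0.153) or empty vector replicate 2 (edgeR adjusted p = 0.156). Of 20 other selenoproteins 16 were tested, 0 passed edgeR without the block, 1 was at an unadjusted p under 0.05, and DESeq2 called 0 (median -0.04). The nearest were Txnrd1, the cytosolic thioredoxin reductase (0.76, edgeR adjusted p = 0.374), and Selenof, of the endoplasmic reticulum (-0.5, edgeR adjusted p = 0.782), which were the 1 higher and the 1 lower gene with the block. Txnrd1 is counted in the peroxiredoxin list as well, and Selenof in the list of oxidative folding.

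Copper and manganese delivery to the dismutases had 13 of 14 genes tested and 0 passing edgeR in either direction, with 2 at an unadjusted p under 0.05. With the block 3 were higher and 0 lower, and the median was 0.09. Ccs, the copper chaperone of SOD1, averaged 24.6 ± 2.43 CPM in fusion+ and 22.4 ± 0.887 CPM in empty vector libraries (0.14, edgeR adjusted p = 0.954), and it was picked after its values were seen. Sod1 itself was at 0.91 and did not pass in the same fit (edgeR adjusted p = 0.0552). The difference between Ccs and Sod1 was not tested. The nearest to passing were the metallothioneins Mt1 (1.21, edgeR adjusted p = 0.235) and Mt2 (1.65, edgeR adjusted p = 0.279), and DESeq2 called 1 gene, Mt2 (adjusted p = 0.0461).

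Among genes of peroxisome import and of oxidases that make hydrogen peroxide there, the surroundings of catalase, 19 of 24 were tested and 0 passed edgeR, with 2 at an unadjusted p under 0.05. With the block 2 were higher and 1 lower, and the median was 0.02. Pex5, the import receptor, averaged 98 ± 23.3 CPM in fusion+ and 103 ± 16.7 CPM in empty vector libraries (-0.07, edgeR adjusted p = 0.989), and it too was picked after its values were seen. Hao1, a hydroxyacid oxidase, was nearest to passing at a level under 1.2 CPM in every library (-2.16, edgeR adjusted p = 0.121), and DESeq2 called it lower (adjusted p = 0.0215). The difference between Cat and these genes was not tested.

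Of 15 genes of the NADPH oxidases, which make superoxide or hydrogen peroxide, 7 were tested, and 0 were higher and 2 lower (0 and 3 with the block, median 0.04). Both were rare: Duox1 averaged 0.0748 ± 0.00149 CPM in fusion+ and 0.437 ± 0.144 CPM in empty vector libraries (-2.49, edgeR adjusted p = 0.0405), and its maturation factor Duoxa1 averaged 0.193 ± 0.0143 CPM in fusion+ and 0.875 ± 0.277 CPM in empty vector libraries (-2.15, edgeR adjusted p = 0.0413). Duox1 passed in 0 of the 6 fits without a library (edgeR adjusted p = 0.0745 to 0.168), and Duoxa1 in 1, the fit without empty vector replicate 1 (edgeR adjusted p = 0.0408 to 0.167 over the 6). DESeq2 called 3 lower and 0 higher. The gene it and the block added was Nox4, named after its values were seen, which releases hydrogen peroxide without added stimulus. Nox4 averaged 4.39 ± 1.42 CPM in fusion+ and 9.42 ± 1.42 CPM in empty vector libraries, and it passed with the block (-1.14, edgeR adjusted p = 0.00924) and by DESeq2 without it (-1.12, adjusted p = 0.00969), but not by edgeR without it (-1.11, edgeR adjusted p = 0.14).

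In the list of lipid peroxidation and ferroptosis, the process that GPX4 restrains, 17 of 20 genes were tested, with 2 higher and 0 lower (4 higher and 0 lower by DESeq2, 5 higher and 1 lower with the block, median 0.06). They were Slc40a1, the iron exporter ferroportin, at 93.1 ± 31.9 CPM in fusion+ and 18.5 ± 4.55 CPM in empty vector libraries (log2 fold change 2.34, edgeR adjusted p = 0.00958), and Ftl1, at 390 ± 45.5 CPM in fusion+ and 171 ± 23.2 CPM in empty vector libraries (1.19, edgeR adjusted p = 0.0249). Slc40a1 passed whichever library was left out. Ftl1 passed in 1 of those 6 fits, the one without fusion+ replicate 3, with edgeR adjusted p of 0.0382 to 0.106 over the 6. Gpx4 itself did not pass in the same fit.

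**Figure D4:**
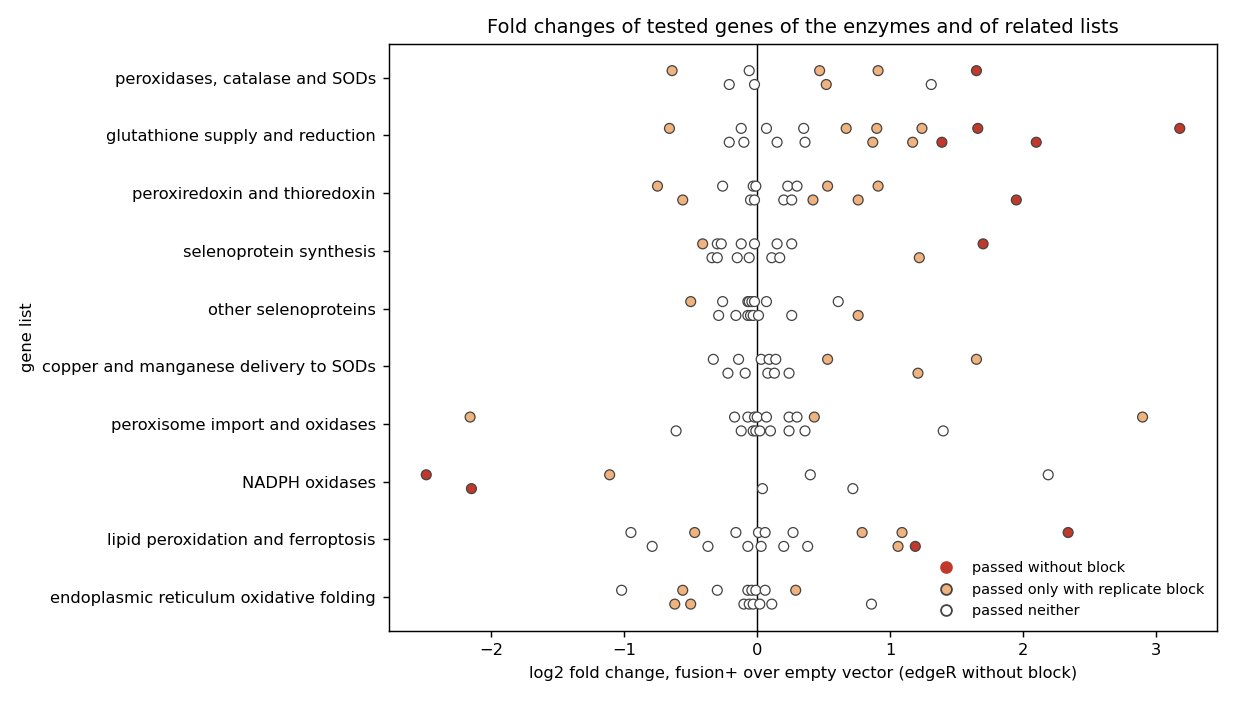
Log2 fold change of every tested gene, fusion+ over empty vector (x axis, edgeR without the block), for the enzymes and 9 related lists (y axis). Dark points passed without the block, light filled points only with it, and open points in neither. The glutathione list holds 4 dark points, all above 0, and the NADPH oxidase list 2, both below 0.

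The list of the construct and its regulators had 1 of 10 genes higher and 0 lower, the 1 being Pax8 (5 higher and 0 lower with the block, median 0.32). DESeq2 called 4 higher and 0 lower, adding Keap1 (adjusted p = 0.00972), which marks NRF2 for degradation, Sqstm1 (adjusted p = 0.0127) and Bach1 (adjusted p = 0.032), named after their values were seen. Nfe2l2, given as a gene of the construct although it falls outside the rule for named genes, averaged 136 ± 11.9 CPM in fusion+ and 119 ± 7.15 CPM in empty vector libraries (0.19, edgeR adjusted p = 0.885).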

How the data were processed

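Per the labels' protocols, polyadenylated RNA of TRAMP-C1 cells was read as 50 bp single-end reads. STAR, HTSeq and GRCm38 were used, per the submitters' processing notes, and the authors deposited raw read counts per gene, in 12 lane tables for 7 libraries. The sources used here give no tool versions, annotation release or strand setting, and without the strand setting reads of overlapping genes on opposite strands cannot be assigned. Lanes of a library agreed within sampling noise (chi-square over degrees of freedom, 0.9813 to 1.0095) and were summed. Symbols, positions and lengths came from GENCODE release M21, in which 46091 of 46603 gene rows had a symbol. Rows that name no gene stayed out: multiply aligned reads (36.096 to 45.323% of a library, most in those numbered 3), reads outside genes (5.726 to 6.927%) and ambiguous ones (1.222 to 1.479%). The 92 spike-in rows held at most 2 counts.

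Groups were compared with edgeR 4.0.16 in R 4.3.3 (TMM, filterByExpr with a minimum count of 10, robust quasi-likelihood F test, Benjamini-Hochberg adjustment over all 16731 tested genes, threshold 0.05), on the 6 libraries of fusion+ and empty vector, and on all 7 for the comparisons with WT. The standard error is the absolute log2 fold change divided by the square root of F. Across genes, libraries that share a number deviated from their group means together (r = 0.535, 0.488 and 0.459 for numbers 1, 2 and 3), so number was treated as a pairing; this check is the source of the pairing, as no label names a shared batch. Alternatives were a replicate block, DESeq2 1.42.0, RLE size factors, no count filter, leaving out each library, lanes 5 and 6 only, other gene lengths and a looser motif. The fitting scripts were tested on simulated data. Limits for 0 counts cover counting error only.

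The members and all gene lists were chosen with earlier results of these data known. All 10 members are described. Of each list the text names at most the 4 called genes with the smallest adjusted p, or at most 2 where none passed, and for Cat and Gpx8 the 3 genes most correlated in log2 CPM (pseudocount 0.5). Apart from the construct genes, genes named outside this rule were picked after their values were seen.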

Additional observations from a re-analysis of the deposited data

How the results depend on the processing

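The members called in fusion+ against empty vector numbered 1, and 2 with DESeq2, 5 with the replicate block, 5 with the block in numbers 1 and 2 alone, and, in settings chosen after seeing the data, 2 with the block in numbers 1 and 3 (Cat and Sod1) and 4 in numbers 2 and 3 (without Sod2). Leaving out each library gave 0 to 1, the 0 without fusion+ replicate 2. In fusion+ against WT DESeq2 called 2, against 0 by edgeR. Over all genes the calls were 282 higher and 59 lower without the block, 1276 and 920 with it, and 622 and 300 by DESeq2. Without fusion+ replicate 1 they were 190 and 14, without fusion+ replicate 2 137 and 17, and without empty vector replicate 2 127 and 12. With the block the calls over all genes were 1873 higher and 1403 lower in numbers 1 and 2 alone. They were 297 and 124 in numbers 1 and 3, and 810 and 679 in numbers 2 and 3. Beyond the members and lists where it is given, the block changed no other call of a member. The looser motif was found in 2 members, against 1. Signs near 0 were not kept: Gpx4 ranged from -0.49 to 0.1 over the fits that left out a library, Gpx7 from -0.32 to 0.44 and Sod3 from -0.33 to 0.29. Gpx7 was 0.01 with the block, 0.23 in numbers 1 and 2 and 0.22 there with the block, and Sod3 was 0 in numbers 1 and 2 and 0.01 there with the block. The causes were not tested. RLE size factors and no count filter kept the side of the threshold and the direction of all 9 members.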
